A study of Mus musculus with 30 samples.

Results

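The ventral prostate (VP) of mice fed a linseed oil (LO) diet for 32 weeks was compared with that of mice fed the same diet for 12 weeks. Both groups were taken from the sample labels by diet and time, with 5 mice at each time, so that 10 of the 30 sequenced mice entered the comparison. All 10 were male C57BL/6 mice that received, from weaning, a growth diet with normal fat content whose lipid source was linseed oil, rich in ω-3 polyunsaturated fatty acids. The labels distinguish the 2 groups by the weeks on this diet. The other 20 mice received soybean oil (SO, mostly ω-6 polyunsaturated fatty acids) or lard (PF, mostly saturated and monounsaturated fatty acids) for the same times and are used here only to show where the change over time in LO differs. No label names a batch of dissection, library preparation or sequencing. Time on diet, age of the mouse and any batch of the 2 time points therefore cannot be told apart in any difference given below.

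The VP is an exocrine gland. Its luminal cells load large amounts of a few secretory proteins into the endoplasmic reticulum (ER), where chaperones fold them before they travel to the Golgi, and a thin layer of basal cells separates these luminal cells from a stroma of smooth muscle and fibroblasts. Immune cells are sparse in the young gland and become more common in ageing rodent prostates. Plasma cells, the antibody-secreting descendants of B cells, make so much immunoglobulin mRNA that small numbers of them can be seen in RNA from a whole tissue. In such bulk RNA, more cells of a type and more RNA per cell cannot be told apart.

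Each LO library held 27590631 to 39239920 counts assigned to genes, with a median of 35390110 at 12 weeks and 32039478 at 32 weeks. The luminal keratin genes Krt8 and Krt18 were abundant at both times, at 268 to 514 and 507 to 652 CPM (read counts scaled to a common library size), while Svs2 and Svs4 of the seminal vesicle had at most 1 count in any mouse. All CPM values are scaled by TMM, a normalization in edgeR that corrects for differences in composition between libraries. In the principal component analysis (PCA) of the 500 most variable genes, the first component held 50.4% of the variance. The 12-week mice scored between −19.5 and −4.99 on it, and 32-week mice 1, 2, 3 and 5 scored 19.4, 8.02, 22.2 and 17.4. Mouse 4 at 32 weeks scored −6.36, among the 12-week mice. Mouse 1 at 32 weeks stood apart by skeletal muscle transcripts (Ckm at 74.4 CPM, against 0.295 to 5.77 at 12 weeks).

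**Figure D1:**
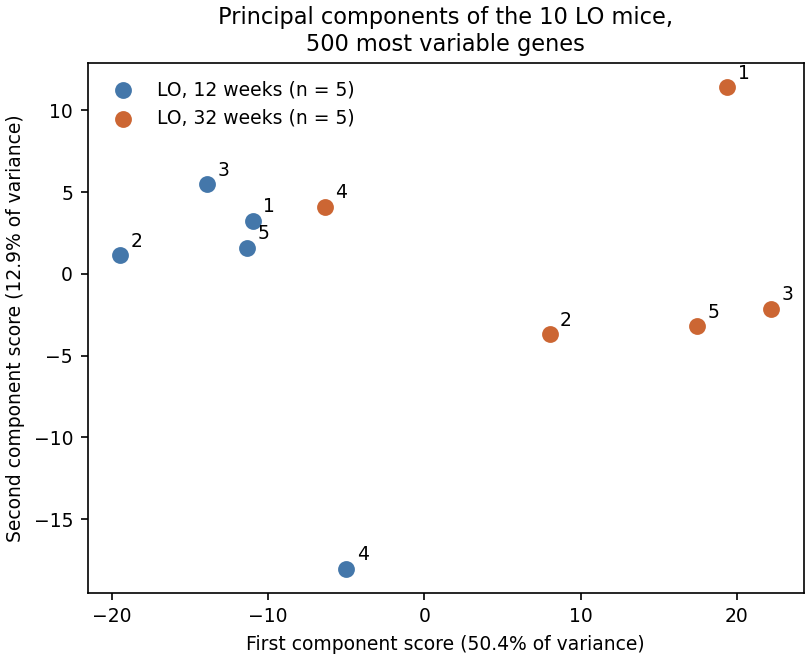
First (x axis) and second (y axis) principal component scores of the 10 LO mice from the 500 most variable genes, with mouse numbers beside the points. Mice 1, 2, 3 and 5 at 32 weeks lie to the right at 8.02 to 22.2 on the first component, and mouse 4 lies at −6.36 among the 12-week mice.

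Of 15752 genes tested, 57 (0.362%) passed an adjusted p of 0.05 in the quasi-likelihood test of edgeR with Benjamini-Hochberg adjustment, 44 of them higher (0.279%) and 13 lower (0.0825%) at 32 weeks. Immunoglobulin loci gave 18 of the 44 higher genes, with log2 fold changes of 3.97 to 6.72. The other 26 lay between 0.39 and 3.82, and the 13 lower genes between −1.37 and −0.43. At an unadjusted p under 0.05 there were 3020 genes (19.2%), and the Wald test of DESeq2 called 989 genes (6.28%), 600 higher (3.81%) and 389 lower (2.47%), among them all 57. The 2 times did not overlap in 667 genes (4.23%), 314 higher (1.99%) and 353 lower (2.24%), and among the 57 they did not overlap in 56. The 57 were chosen by small p in the same mice, so a lack of overlap in a called gene is not independent of its call. The adjusted p of the 57 genes ran only from 0.0260 to 0.0499. Without mouse 4 at 32 weeks edgeR called 586 genes, without mouse 4 at 12 weeks 99, and without any one of the other 8 mice between 0 and 5. In these 10 fits all 57 genes kept their direction and their adjusted p reached at most 0.137.

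Ighm led the immunoglobulin genes by level. This gene, the constant region of the IgM heavy chain (chr12:113418558-113422730, minus strand, GRCm38), was at 232, 110, 360, 442 and 224 CPM in 12-week mice 1 to 5 and at 7449, 4028, 7705, 554 and 4879 CPM in 32-week mice 1 to 5. Mouse 4 at 32 weeks lay just above the highest 12-week mouse and the other 4 lay far above, so the groups did not overlap. Ighm rose by 4.17 ± 0.64 on the log2 scale (SE, n = 5 and 5, edgeR adjusted p = 0.0387). Igkc, the constant region of the kappa light chain, was at 70.4 to 224 CPM at 12 weeks and at 312 to 3542 CPM at 32 weeks, with a log2 fold change of 3.97 ± 0.61 (SE). Iglc2, a lambda constant region, rose by 4.44 ± 0.70 (SE) from a range of 2.59 to 11.8 CPM.

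Among heavy chain constant regions, Ighm took 70.2% to 93.2% of the counts at 12 weeks and 86.4% to 95.1% at 32 weeks. Igha, of the mucosal IgA, took 3.18% to 22.1% at 12 weeks and 1.27% to 9.83% at 32 weeks. Ighg2b took 1.03% to 21.1% and then 1.41% to 4.32%, the highest value being that of 12-week mouse 2. The isotype shares of the 2 times overlapped. Counting error is small beside these ranges, since the heavy chain counts numbered at least 4822 per mouse, but shares were not tested between the times. In all, immunoglobulin genes took 0.0274% to 0.0957% of gene counts at 12 weeks, 0.122% in 32-week mouse 4 and 0.769% to 1.78% in the other 32-week mice.

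**Figure D2:**
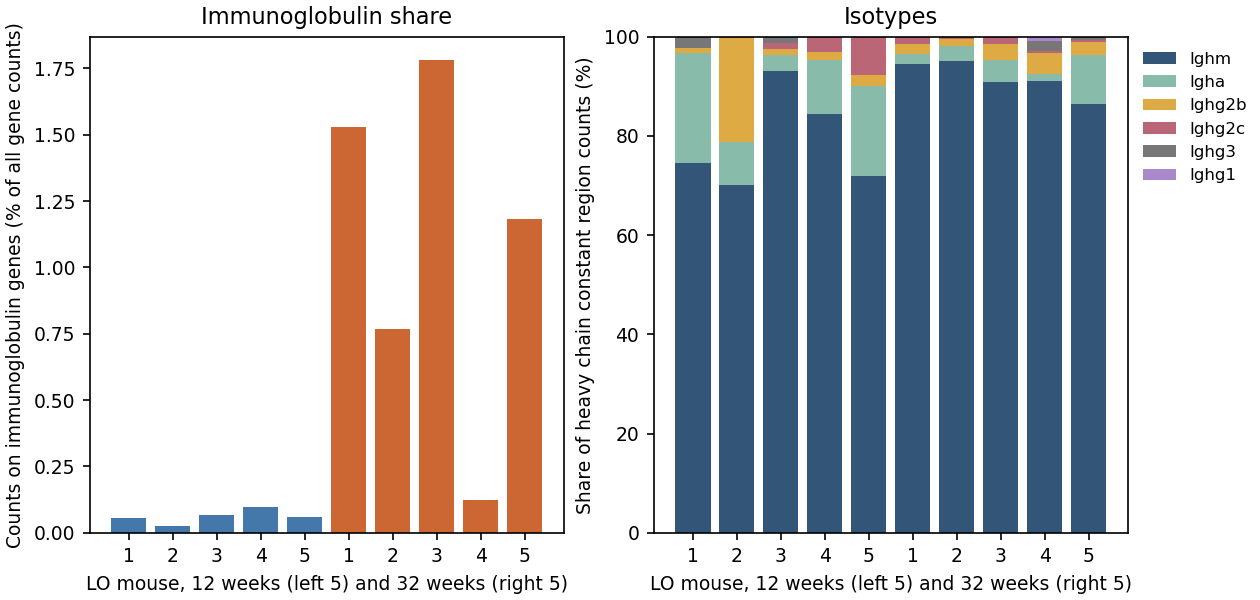
Left, counts on all immunoglobulin genes as a percentage of gene counts in each LO mouse (blue, 12 weeks; orange, 32 weeks). Right, the share of each heavy chain constant region among heavy chain constant counts. The share is at most 0.0957% at 12 weeks and reaches 1.78% at 32 weeks, mouse 4 staying at 0.122%, and Ighm is the largest isotype in every mouse.

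Other genes of antibody-secreting cells rose with it. Jchain, the chain that joins IgM and IgA into polymers, was at 33.2, 17.6, 36.8, 53.7 and 43.7 CPM at 12 weeks and at 638, 413, 795, 75.6 and 697 CPM at 32 weeks, a log2 fold change of 3.82 ± 0.56 (SE, edgeR adjusted p = 0.0352). The groups did not overlap, and 32-week mouse 4 was again the lowest of its group. Irf4, a transcription factor that plasma cells need, rose by 2.43 ± 0.39 (SE), from 1.26 to 2.55 CPM at 12 weeks to 3.42 to 16.2 CPM at 32 weeks. Slamf7, a surface receptor of plasma and NK cells, rose by 1.85 ± 0.33 (SE) and was the only one of the 57 genes whose groups overlapped, with 32-week mouse 4 at 1.38 CPM below 12-week mouse 4 at 1.48 CPM.

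Of 12 plasma cell and immunoglobulin constant genes tested, edgeR called 4 higher and DESeq2 8 higher. Over all genes tested the shares called higher were 0.279% in edgeR and 3.81% in DESeq2. The median log2 fold change of the list was 3.04, against −0.0059 over all genes tested. Mzb1, an ER protein of plasma cells, and Pou2af1, a B-lineage coactivator, had log2 fold changes of 2.76 and 3.23 that DESeq2 alone called (edgeR adjusted p = 0.0601 and 0.0548). The summed level of the list was 293 to 877 CPM at 12 weeks and 1085 to 13091 CPM at 32 weeks. Genes of earlier B cells were low. Ms4a1, which encodes CD20, lay at 0.194 to 2.74 CPM at 12 weeks and 0.628 to 5.84 CPM at 32 weeks. All 8 B cell genes tested had higher fitted levels at 32 weeks, with a median of 1.34, but none was called by either tool.

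The 15 variable (V) segments called were 6 heavy, 8 kappa and 1 lambda segment. Of 116 V segments tested, 115 had a higher fitted level at 32 weeks (median log2 fold change 3.85). DESeq2 called 69 of them, where it called 3.81% of all genes tested higher. The data held 204 V segments, and a segment could pass the filter through its counts at 32 weeks alone. The filter thus favours segments high at 32 weeks, and the number higher and the median only describe those kept. A V segment encodes most of the antigen-binding domain, and each B cell clone uses 1 heavy and 1 light segment. The most used segment differed from mouse to mouse. At 32 weeks it was Igkv14-126 in mouse 1 with 14.8% of V counts, Iglv1 in mouse 2 with 24.0%, Igkv8-24 in mouse 3 with 10.2%, Igkv1-117 in mouse 4 with 8.29% and Igkv2-112 in mouse 5 with 9.97%. At 12 weeks the top segments were Iglv1, Ighv6-3, Iglv2, Igkv3-2 and Igkv1-110. At least 133 V segments had 10 or more counts in 32-week mice 1, 2, 3 and 5, against 37 to 84 at 12 weeks and 91 in 32-week mouse 4, in libraries with far fewer V counts.

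Ighv11-2 and Igkv14-126, both called, are known from B-1 cells, a long-lived B cell class that makes natural IgM, where the pair encodes antibodies to phosphatidylcholine. Their V exons are shown because both were called and together led the V counts of 1 mouse. The last 300 bases of the Ighv11-2 exon lie at chr12:114048241-114048540 on the minus strand and the Igkv14-126 exon at chr6:67896345-67896642 on the plus strand (GRCm38, GENCODE M21 transcripts). Both are coding exons, given 5′ to 3′, and the capitals mark the codons that end in the conserved cysteine before the third complementarity-determining region.
Ighv11-2: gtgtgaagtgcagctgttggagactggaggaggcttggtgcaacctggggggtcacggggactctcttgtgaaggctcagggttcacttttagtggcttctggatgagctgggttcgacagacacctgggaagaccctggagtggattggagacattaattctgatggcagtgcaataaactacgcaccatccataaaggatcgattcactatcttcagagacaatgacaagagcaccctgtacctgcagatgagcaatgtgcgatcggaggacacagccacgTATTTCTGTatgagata
Igkv14-126: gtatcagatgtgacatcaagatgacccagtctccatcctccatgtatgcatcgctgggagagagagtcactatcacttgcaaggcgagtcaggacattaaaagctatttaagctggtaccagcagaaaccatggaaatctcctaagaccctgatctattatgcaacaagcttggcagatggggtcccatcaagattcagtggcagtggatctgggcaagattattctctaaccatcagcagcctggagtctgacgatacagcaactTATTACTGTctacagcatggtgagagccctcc

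Igkv14-126 was at 3.57, 3.17, 7.37, 4.0 and 10.8 CPM in the 12-week mice and at 450, 94.7, 161, 21.6 and 202 CPM in the 32-week mice. Every 32-week mouse lay above every 12-week mouse, and the log2 fold change was 5.01 ± 0.75 (SE, edgeR adjusted p = 0.0352). Ighv11-2 was at 0.852, 0.162, 2.84, 1.53 and 5.09 CPM at 12 weeks and at 164, 32.9, 63.0, 8.32 and 53.2 CPM at 32 weeks, with a log2 fold change of 4.95 ± 0.89 (SE, edgeR adjusted p = 0.0499). Mouse 1 at 32 weeks was highest for both. In that mouse Ighv11-2 took 16.5% of heavy V counts and Igkv14-126 23.5% of kappa V counts, against 0.526% to 9.34% and 3.10% to 11.1% in the 12-week mice. In the other 32-week mice Ighv11-2 took 5.33% to 10.2% and Igkv14-126 7.53% to 13.2%, ranges that overlap those at 12 weeks. The Ighv11-2 exon is 98.7% identical to that of Ighv11-1, so reads can be split or lost between such near copies. Over the 15 called segments the identity to the nearest other segment had a median of 95.1%.

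Ighv1-54 and Igkv1-117 had the smallest p of the higher genes. Ighv1-54 had only 12 counts in all 12-week mice together and 530 in the 32-week mice, 2 of the 12-week mice being at 0, so the size of its log2 fold change of 5.41 depends on how low counts are handled. Igkv1-117 was at 1.78 to 6.38 CPM at 12 weeks and 24.4 to 170 CPM at 32 weeks (log2 fold change 4.65 ± 0.58, SE, edgeR adjusted p = 0.0260). The 2 groups of mice did not overlap in either gene. The largest log2 fold change of the 57, 6.72, was that of Iglv3, on 24 counts over the 12-week mice and 2631 over the 32-week mice.

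Prg2, the major basic protein of eosinophil granules, was at 0.186, 0.0972, 0.221, 0.349 and 0.312 CPM at 12 weeks and at 3.57, 1.61, 4.12, 0.911 and 2.25 CPM at 32 weeks. It rose by 3.39 ± 0.46 on the log2 scale (SE, edgeR adjusted p = 0.0352), from 39 counts over the 5 younger mice to 412 over the 5 older ones. Epx, the eosinophil peroxidase, had at most 1 count in any mouse.

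Macrophage, complement and chemokine genes mostly had higher fitted levels at 32 weeks, but edgeR called only 1 of them. Of 16 macrophage genes, 15 had a higher fitted level (median 0.98), none was called by edgeR and 9 by DESeq2. Over all genes tested DESeq2 called 3.81% higher. Mrc1, the mannose receptor, was at 37.8, 25.5, 27.6, 30.6 and 39.8 CPM at 12 weeks and 53.6, 57.6, 103, 30.5 and 71.6 CPM at 32 weeks (log2 fold change 0.97 ± 0.27, SE, edgeR adjusted p = 0.111, DESeq2 adjusted p = 0.00995). Mouse 4 at 32 weeks lay within the 12-week range and the other 4 above it. Cd163, the scavenger receptor for haemoglobin, had a log2 fold change of 1.56 (edgeR adjusted p = 0.115, DESeq2 adjusted p = 0.00616).

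Of 20 complement genes, 18 had a higher fitted level (median 0.84). Cfi, the protease that inactivates C3b and C4b, was the 1 called by edgeR, and 11 were called by DESeq2. Of all genes tested, edgeR called 0.279% and DESeq2 3.81% higher. Cfi was at 0.885 to 1.48 CPM at 12 weeks and at 2.11 to 2.90 CPM at 32 weeks, a rise of 1.11 ± 0.20 on the log2 scale (SE, edgeR adjusted p = 0.0499). C3ar1, the receptor for the C3a fragment, was at 4.84, 2.46, 2.62, 3.81 and 3.97 CPM and then at 9.16, 9.48, 14.6, 4.52 and 11.5 CPM (log2 fold change 1.47 ± 0.30, SE, edgeR adjusted p = 0.0630). Only 32-week mouse 4 lay within the 12-week range. C7, part of the membrane attack complex, had a log2 fold change of 1.73 (edgeR adjusted p = 0.0808).

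Among 43 chemokines and their receptors, 39 had a higher fitted level (median 0.86), none was called by edgeR, and DESeq2 called 10 higher and 1 lower. Over all genes tested DESeq2 called 3.81% higher and 2.47% lower. Ccl8, a ligand that draws monocytes and T cells, was at 0.648 to 5.74 CPM at 12 weeks and at 13.6, 23.8, 36.1, 2.86 and 26.7 CPM at 32 weeks (log2 fold change 2.65 ± 0.64, SE, edgeR adjusted p = 0.0873). Cxcl14, which epithelia and stroma make, was the one called lower by DESeq2, at −0.52. Ackr4, a receptor that scavenges Ccl19, Ccl21 and Ccl25, stood outside the list and rose by 0.73 (edgeR adjusted p = 0.0465), from 3.61 to 4.78 CPM to 5.93 to 7.41 CPM. Without 32-week mouse 4 the medians were 1.17 for macrophage genes, 1.05 for complement and 1.02 for chemokines.

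T and NK cell genes had a median of 0.65 over 18 genes, with Gzma, the granzyme of cytotoxic cells, at 1.63 (edgeR adjusted p = 0.0630, DESeq2 adjusted p = 0.00108). MHC class II genes had a median of 0.61 over 10 genes, all with higher fitted levels, and class I genes 0.25 over 13. Of 34 interferon-stimulated genes 22 had a higher fitted level, with a median of 0.15 that was 0.82 without 12-week mouse 4. Their sum was 2772 CPM in that mouse and 686 to 893 CPM in the other 12-week mice, and 1041, 1631, 1045, 722 and 1881 CPM in 32-week mice 1 to 5. No gene of these lists was called by edgeR, and only Gzma, Klrb1c, Cd74 and H2-Aa were called by DESeq2, names given after their values were seen. DESeq2 called 6.28% of all genes tested, and over these lists together its calls were near that share.

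Among basal cell genes edgeR called Krt15. Krt15, a keratin of basal and progenitor-type cells, was at 53.8, 39.1, 23.9, 44.6 and 27.9 CPM at 12 weeks and at 110, 84.3, 96.6, 65.5 and 94.2 CPM at 32 weeks. The groups did not overlap, and Krt15 rose by 1.25 ± 0.22 on the log2 scale (SE, edgeR adjusted p = 0.0499). All 9 basal genes tested had a higher fitted level (median 0.65), 1 called by edgeR and 4 by DESeq2. Of all genes tested, edgeR called 0.279% and DESeq2 3.81% higher. Krt5, the main basal keratin, was at 26.6 to 51.8 CPM and then at 47.8 to 106 CPM (log2 fold change 0.91 ± 0.23, SE, edgeR adjusted p = 0.0976). Trp63, the transcription factor that defines basal cells, had a log2 fold change of 0.65 ± 0.15 (SE, edgeR adjusted p = 0.0808), with 32-week mouse 4 at 16.4 CPM inside the 12-week range and the other 4 at 24.7 to 27.4 CPM above it.

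Genes of the proximal luminal cells, the duct cells near the urethra, were also all higher among the 10 tested, with a median of 0.75. None was called by edgeR and 2 by DESeq2, which called 3.81% of all genes tested higher. Ly6d, a surface marker of castration-resistant luminal cells, was at 0.843 to 3.33 CPM at 12 weeks and at 15.8, 5.94, 11.8, 2.48 and 7.47 CPM at 32 weeks (log2 fold change 2.28 ± 0.53, SE, edgeR adjusted p = 0.0808). How much of the duct each dissection took is not given, and its part in these values was not tested. The 12 luminal genes had a median of 0.05 and none called, and 18 androgen-regulated genes had a median of −0.05. Among the latter edgeR called none, and DESeq2 called 2 higher and 3 lower, where it called 3.81% of all genes tested higher and 2.47% lower. The higher ones were Steap4, a metalloreductase, at 1.02 (edgeR adjusted p = 0.0648) and Ndrg1 at 0.49. The lower ones were Acpp, the prostatic acid phosphatase, at −0.84 (edgeR adjusted p = 0.0623), Fkbp5, a cochaperone of steroid receptors, at −0.41 and Abcc4, an efflux transporter, at −0.28.

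Several other called genes rose in all 5 older mice. Serpinb11, of the clade B serpin family, was at 9.93, 10.2, 8.18, 14.2 and 9.12 CPM at 12 weeks and at 26.4, 21.8, 19.9, 18.6 and 24.7 CPM at 32 weeks (log2 fold change 1.11 ± 0.16, SE). Dhrs3, which reduces retinaldehyde to retinol, rose by 0.94 ± 0.14 (SE), and Cemip, which degrades hyaluronan, by 0.89 ± 0.13 (SE). Tspan7, a tetraspanin, rose by 0.62 ± 0.09 (SE), and Rab17, a GTPase of epithelial vesicle transport, by 0.61 ± 0.09 (SE), and these 5 had an edgeR adjusted p of 0.0352. In contrast to the immune genes, 32-week mouse 4 lay near its group for Tspan7 (29.8 CPM in a range of 28.4 to 34.7) and Rab17 (25.6 CPM in a range of 25.3 to 28.1).

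Hgf, the ligand of the Met receptor, rose by 1.62 ± 0.28 (SE), from 0.972 to 2.36 CPM at 12 weeks to 3.27 to 7.87 CPM at 32 weeks, and Vegfd, a growth factor of lymphatic vessels, by 1.11 ± 0.20 (SE). Car12, a membrane carbonic anhydrase, rose by 1.60, B4galnt2, a glycosyltransferase, by 1.53, and Fetub, a protease inhibitor better known from plasma, by 1.27. These 5 genes had an edgeR adjusted p of 0.0352 to 0.0499 and did not overlap between the times. Scgb1b7, a secretoglobin with many near copies in the mouse genome, had a log2 fold change of 2.65 on only 25 counts over the 12-week mice and 159 over the 32-week mice, and its count is uncertain for both reasons. The remaining higher genes were Megf11 at 1.05, Fat2, an atypical cadherin, at 0.99, Greb1l at 0.92, Nudt16 at 0.73, Sult5a1 at 0.67, C130026I21Rik at 0.65, Slitrk6 at 0.61 and Rbmx at 0.39.

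**Figure D3:**
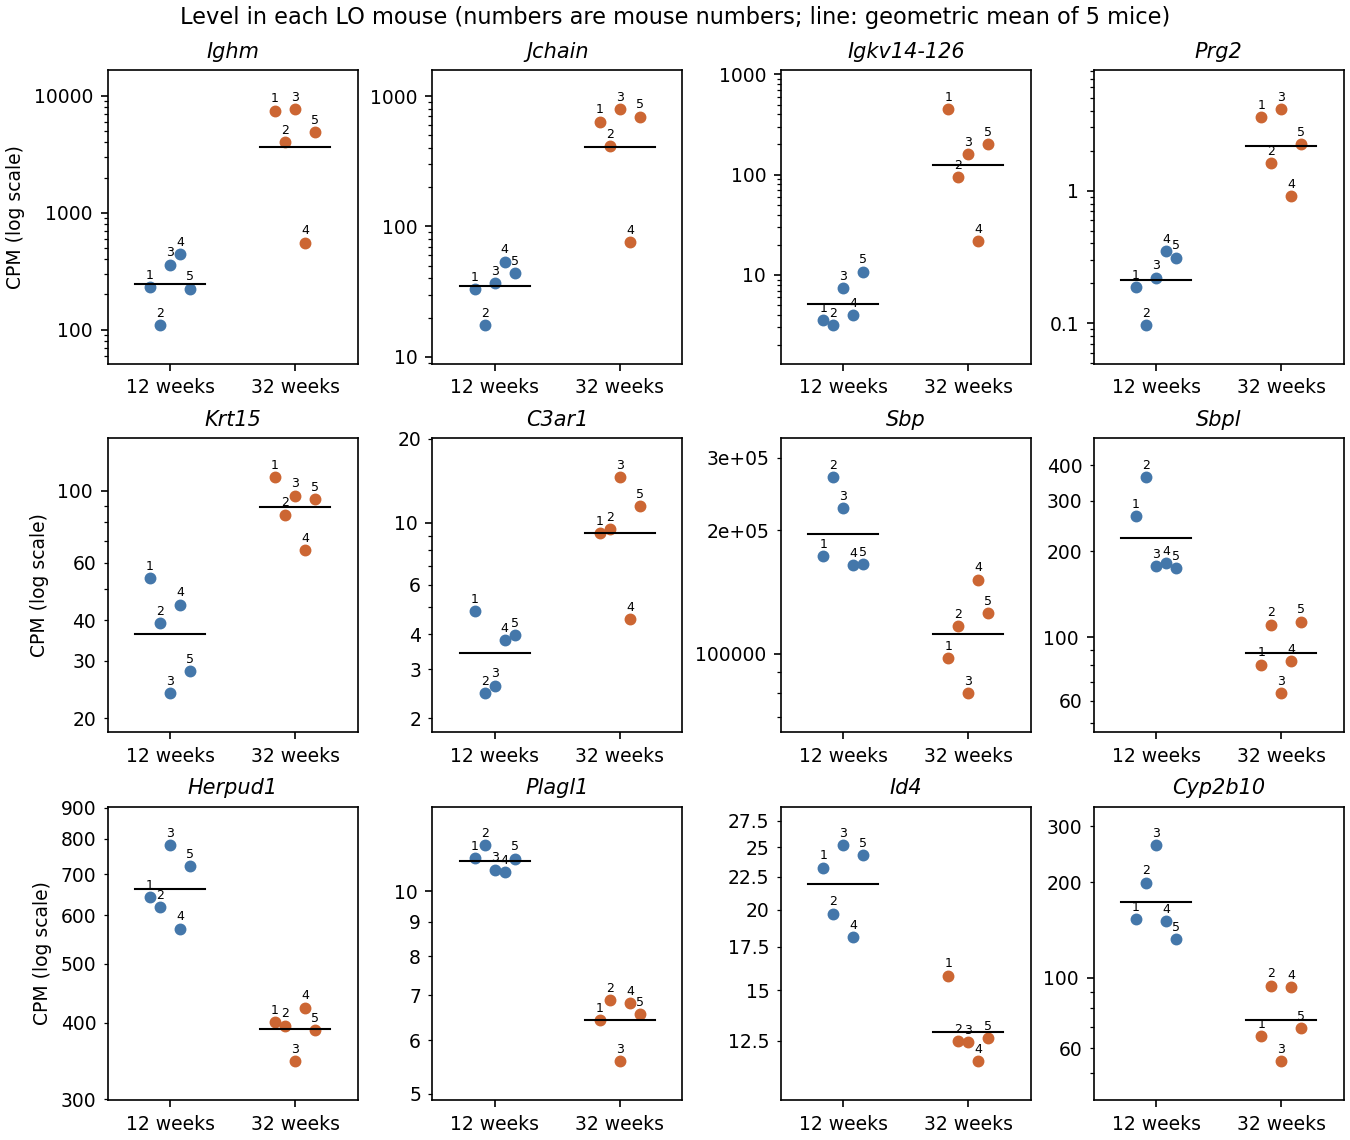
CPM on a log scale (y axis, 1 panel for each gene) in the 5 LO mice at 12 weeks (blue) and the 5 at 32 weeks (orange), with mouse numbers and the geometric mean of each group as a line. Mouse 4 at 32 weeks is the lowest of its group for Ighm, Jchain, Igkv14-126, Prg2, Krt15 and C3ar1, at 554 CPM for Ighm, and lies with its group for Sbpl, Herpud1 and Plagl1.

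Of the secretory genes edgeR called Sbpl lower. Sbp, the spermine-binding protein and the most abundant transcript of the gland, took 18.7% of gene counts on average at 12 weeks and 12.0% at 32 weeks. Its level was 172557, 268888, 225783, 164439 and 164918 CPM in the 12-week mice and 97294, 116791, 80093, 151324 and 125252 CPM in the 32-week mice. All 5 older mice lay below the lowest younger one, yet the log2 fold change of −0.80 ± 0.21 (SE) passed DESeq2 alone (edgeR adjusted p = 0.0987, DESeq2 adjusted p = 0.00229). Sbpl, a neighbouring related gene (chr17:23953084-23955274, minus strand), was at 265, 363, 178, 182 and 174 CPM and then at 80.2, 111, 63.8, 82.6 and 114 CPM. Sbpl fell by 1.37 ± 0.24 on the log2 scale (SE, edgeR adjusted p = 0.0499), and the groups did not overlap. Since Sbp is far more abundant, reads of Sbp assigned to Sbpl could move with it, and this was not tested.

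Spink1, the secreted trypsin inhibitor of the VP, was at 40020 to 63836 CPM at 12 weeks and at 28467, 30996, 22049, 47795 and 38176 CPM at 32 weeks, groups that overlapped through mouse 4 (log2 fold change −0.53 ± 0.21, SE, edgeR adjusted p = 0.203). Pbsn and Msmb, secretory products mainly of other lobes, had log2 fold changes of 0.51 and 0.11 (edgeR adjusted p = 0.729 and 0.919). At 12 weeks mouse 2 was far below the others, at 126 CPM for Pbsn and 554 CPM for Msmb. The other 12-week mice were at 2646 to 4598 and 2356 to 4102 CPM. Of the 11 secretory genes tested, 7 had a lower fitted level, and the median was −0.33 (−0.06 without 12-week mouse 4). EdgeR called 1 of them lower and DESeq2 3, where they called 0.0825% and 2.47% of all genes tested lower. The 10 most abundant genes took 29.4% ± 3.80 (SD, n = 5) of gene counts at 12 weeks and 22.7% ± 3.19 (SD, n = 5) at 32 weeks, a difference of −6.78 percentage points (exact permutation p = 0.0238, two-sided). Spink5, a serine protease inhibitor also among these 10, had a log2 fold change of 0.87 in the other direction (edgeR adjusted p = 0.106).

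Herpud1 was the gene of the ER stress response that edgeR called. Herpud1, which helps remove misfolded proteins from the ER and is among the genes most readily induced by ER stress, was at 641, 618, 780, 571 and 721 CPM at 12 weeks and at 401, 396, 346, 424 and 390 CPM at 32 weeks. The groups were well apart, mouse 4 included, and Herpud1 fell by 0.77 ± 0.09 on the log2 scale (SE, edgeR adjusted p = 0.0260). Among 20 ER chaperones and disulfide isomerases, a list without Herpud1, 17 had a lower fitted level (median −0.20). None was called by edgeR and 6 were called lower by DESeq2, which called 2.47% of all genes tested lower. Hyou1, a chaperone of the Hsp70 family, was at 392 to 581 CPM and then at 290 to 364 CPM (log2 fold change −0.53 ± 0.11, SE, edgeR adjusted p = 0.0654, DESeq2 adjusted p = 0.000743). Hspa5, the chaperone BiP, and Creld2, a disulfide isomerase, had log2 fold changes of −0.37 and −0.38 (edgeR adjusted p = 0.111 and 0.115).

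Transport from the ER was described by a second list. Of 40 genes of ER translocation and secretory transport, 37 had a lower fitted level (median −0.17), none was called by edgeR and 11 were called lower by DESeq2. Over all genes tested DESeq2 called 2.47% lower and 3.81% higher. Sec24d, a coat protein of vesicles that leave the ER, was at 109 to 142 CPM and then at 84.8 to 98.2 CPM (log2 fold change −0.45 ± 0.09, SE, edgeR adjusted p = 0.0617). Lman1, a cargo receptor for glycoproteins, had a log2 fold change of −0.39 (edgeR adjusted p = 0.0636). Outside this list edgeR called Bet1l, a SNARE of the Golgi, at −0.43, Ggcx, the vitamin K-dependent carboxylase of the ER, at −0.43, and Gmppb, which makes the GDP-mannose used for glycosylation, at −0.49. The PERK-ATF4 branch had a median of −0.05 over 20 genes, none called by edgeR, and DESeq2 called Eif2ak3, Ppp1r15a, Ddit3 and Nupr1 lower and Psat1 higher. Ddit3, which encodes CHOP, was at 13.3, 14.0, 20.3, 34.3 and 96.6 CPM at 12 weeks, mouse 5 being far above the others, and at 8.85 to 12.8 CPM at 32 weeks (log2 fold change −1.76, edgeR adjusted p = 0.122, DESeq2 adjusted p = 0.0325). Plasma cells also use these genes heavily, and their part in the totals was not separated.

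The promoters of Herpud1, Hspa5 and Creld2 are shown because they hold an ER stress response element. Hspa5 and Creld2 hold ERSE, a sequence bound by NF-Y together with ATF6 or XBP1, and Herpud1 holds ERSE-II. The RefSeq table for GRCm38.p6 gives 250 bases before to 50 bases after each start site. ERSE was searched on both strands as CCAAT and CCACG with 9 bases between them, and ERSE-II as ATTGG and CCACG with 1 base between them. They are given 5′ to 3′ along the gene, from chr8:94386179-94386478, chr2:34771840-34772139 and chr15:88819396-88819695, all on the plus strand. Capitals mark ERSE-II at −52 in Herpud1, ERSE at −65 in Hspa5, and ERSE on the opposite strand in Creld2.
Herpud1: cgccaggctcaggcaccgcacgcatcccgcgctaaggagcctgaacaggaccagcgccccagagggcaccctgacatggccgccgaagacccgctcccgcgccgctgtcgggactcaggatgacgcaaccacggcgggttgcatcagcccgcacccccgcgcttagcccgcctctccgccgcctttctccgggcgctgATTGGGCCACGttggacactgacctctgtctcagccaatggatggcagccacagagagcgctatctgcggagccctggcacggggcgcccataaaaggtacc
Hspa5: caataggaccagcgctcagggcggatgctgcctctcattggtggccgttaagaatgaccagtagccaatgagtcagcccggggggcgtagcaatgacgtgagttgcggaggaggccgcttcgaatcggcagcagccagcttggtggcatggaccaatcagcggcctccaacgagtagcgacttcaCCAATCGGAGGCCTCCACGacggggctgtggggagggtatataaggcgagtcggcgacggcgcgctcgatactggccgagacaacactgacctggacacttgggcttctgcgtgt
Creld2: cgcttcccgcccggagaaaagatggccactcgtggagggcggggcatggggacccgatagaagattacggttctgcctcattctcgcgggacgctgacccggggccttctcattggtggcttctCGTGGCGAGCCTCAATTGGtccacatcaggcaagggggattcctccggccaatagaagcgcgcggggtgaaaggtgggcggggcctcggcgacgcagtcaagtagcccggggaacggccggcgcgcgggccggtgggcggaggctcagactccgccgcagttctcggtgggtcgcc

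ERSE was found for 0.137% and ERSE-II for 0.0444% of the 27025 genes with a promoter in the table. Of the 16 ER chaperone genes with a promoter there, 7 held ERSE, with a median log2 fold change of −0.24 against −0.09 for the 9 without it. Those 7 were Creld2 (−0.38), Hspa5 (−0.37), Dnajc3 (−0.32), Canx (−0.24), Hsp90b1 (−0.10), Pdia6 (−0.07) and Calr (−0.01). With ERSE-II counted too, 8 held a motif, and the medians were −0.17 with and −0.14 without one. None of 30 secretory transport genes held either motif, while their median was −0.16. A match of letters is not evidence of binding, and these medians were not tested.

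Plagl1, an imprinted zinc finger gene that restrains growth (chr10:13060504-13131694, plus strand), had the smallest p of all genes. It was at 11.2, 11.7, 10.8, 10.7 and 11.2 CPM at 12 weeks and at 6.43, 6.89, 5.59, 6.82 and 6.57 CPM at 32 weeks, with little spread in either group. Plagl1 fell by 0.78 ± 0.09 on the log2 scale (SE, edgeR adjusted p = 0.0260). Of 13 imprinted growth genes it was the only one called by either tool, and H19 had a log2 fold change of 3.17 (edgeR adjusted p = 0.125). H19 was at 0.111 to 0.778 CPM at 12 weeks and at 13.8, 0.475, 1.56, 0.911 and 1.31 CPM at 32 weeks, where only mouse 2 lay inside the 12-week range and mouse 1 was far above the others. Without 32-week mouse 1 its log2 fold change was 1.40.

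Id4, an inhibitor of helix-loop-helix transcription factors, was at 23.2, 19.7, 25.2, 18.1 and 24.3 CPM and then at 15.8, 12.5, 12.4, 11.6 and 12.6 CPM, and fell by 0.77 ± 0.12 (SE). Cyp2b10, a monooxygenase that the nuclear receptor CAR induces, was at 153, 200, 261, 151 and 132 CPM and then at 65.4, 94.4, 54.5, 93.4 and 69.4 CPM, and fell by 1.25 ± 0.21 (SE). The groups did not overlap in either gene. Fst, which binds activin, fell by 0.46 and Slc38a1, a glutamine transporter, by 0.45, with edgeR adjusted p of 0.0387 to 0.0474 for these 4 genes. Cercam fell by 0.90, Gucd1 by 0.45 and Mpp7, a scaffold of cell junctions, by 0.43.

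In the stroma all 12 smooth muscle genes had a lower fitted level, with a median of −0.25, and all 11 fibroblast genes a higher one, with a median of 0.31. EdgeR called none of either list and DESeq2 called 1 of each, where it called 6.28% of all genes tested. Single calls in lists of this size are near that share. Collagens had a median of 0.14 over 21 genes, and only Col12a1, a collagen of fibril surfaces, was called by DESeq2, at −0.55 (edgeR adjusted p = 0.0630). Mfap4, an elastic fibre protein, had a log2 fold change of −1.03 (edgeR adjusted p = 0.0900). All 11 endothelial genes had a higher fitted level, with a median of 0.43 and 1 called by DESeq2.

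Genes of lipid metabolism, which handle the fatty acids the diet supplies, gave no edgeR call. Cholesterol synthesis had a median of −0.01 over 23 genes, lipogenesis and desaturation −0.07 over 25, fatty acid oxidation and PPAR targets −0.10 over 28, and eicosanoid synthesis 0.26 over 19. DESeq2 called 1 lipogenesis gene higher and 1 lower, 2 eicosanoid genes higher and none of the other lists, where it called 6.28% of all genes tested. Fads1, the delta-5 desaturase, had a log2 fold change of 0.40 and Gpam, the first enzyme of glycerolipid synthesis, −0.40 (edgeR adjusted p = 0.127 for both). Alox5ap, which leukotriene synthesis in leukocytes needs, had 0.86 (edgeR adjusted p = 0.145) and Hpgds, a prostaglandin D synthase, 0.82 (edgeR adjusted p = 0.111). Adipocyte genes all had a lower fitted level (10 of 10, median −0.65, none called by either tool). Their sum varied from 59.7 to 776 CPM at 12 weeks and from 107 to 510 CPM at 32 weeks.

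EdgeR called no gene of several further lists. Of 38 cell division genes 32 had a higher fitted level, with a median of 0.35 and none called by either tool. Of 21 clock genes 17 had a lower fitted level, with a median of −0.19. DESeq2 called 2 of them higher, Arntl at 0.66 and Npas2 at 0.91, where it called 3.81% of all genes higher. Antioxidant genes had a median of 0.03, heat-shock proteins −0.08, polyamine genes −0.06, ribosomal proteins 0.10, nuclear oxidative phosphorylation 0.05 and mitochondrially encoded mRNAs −0.05, and edgeR called none of them. DESeq2 called 1 antioxidant, 1 ribosomal protein and 2 oxidative phosphorylation genes higher, and 1 polyamine gene in each direction. It called 6.28% of all genes tested. Skeletal muscle genes had a median of 2.62 over 8 genes, which was 0.31 without 32-week mouse 1. Immediate early genes had a median of −0.01, with Atf3 at 9.31 to 309 CPM at 12 weeks and at 10.5 to 33.5 CPM at 32 weeks. Atf3 had a log2 fold change of −2.39 and was called lower by DESeq2 alone (edgeR adjusted p = 0.140, DESeq2 adjusted p = 0.0387). How these tissue and handling genes bear on the immune and secretory values was not tested.

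**Figure D4:**
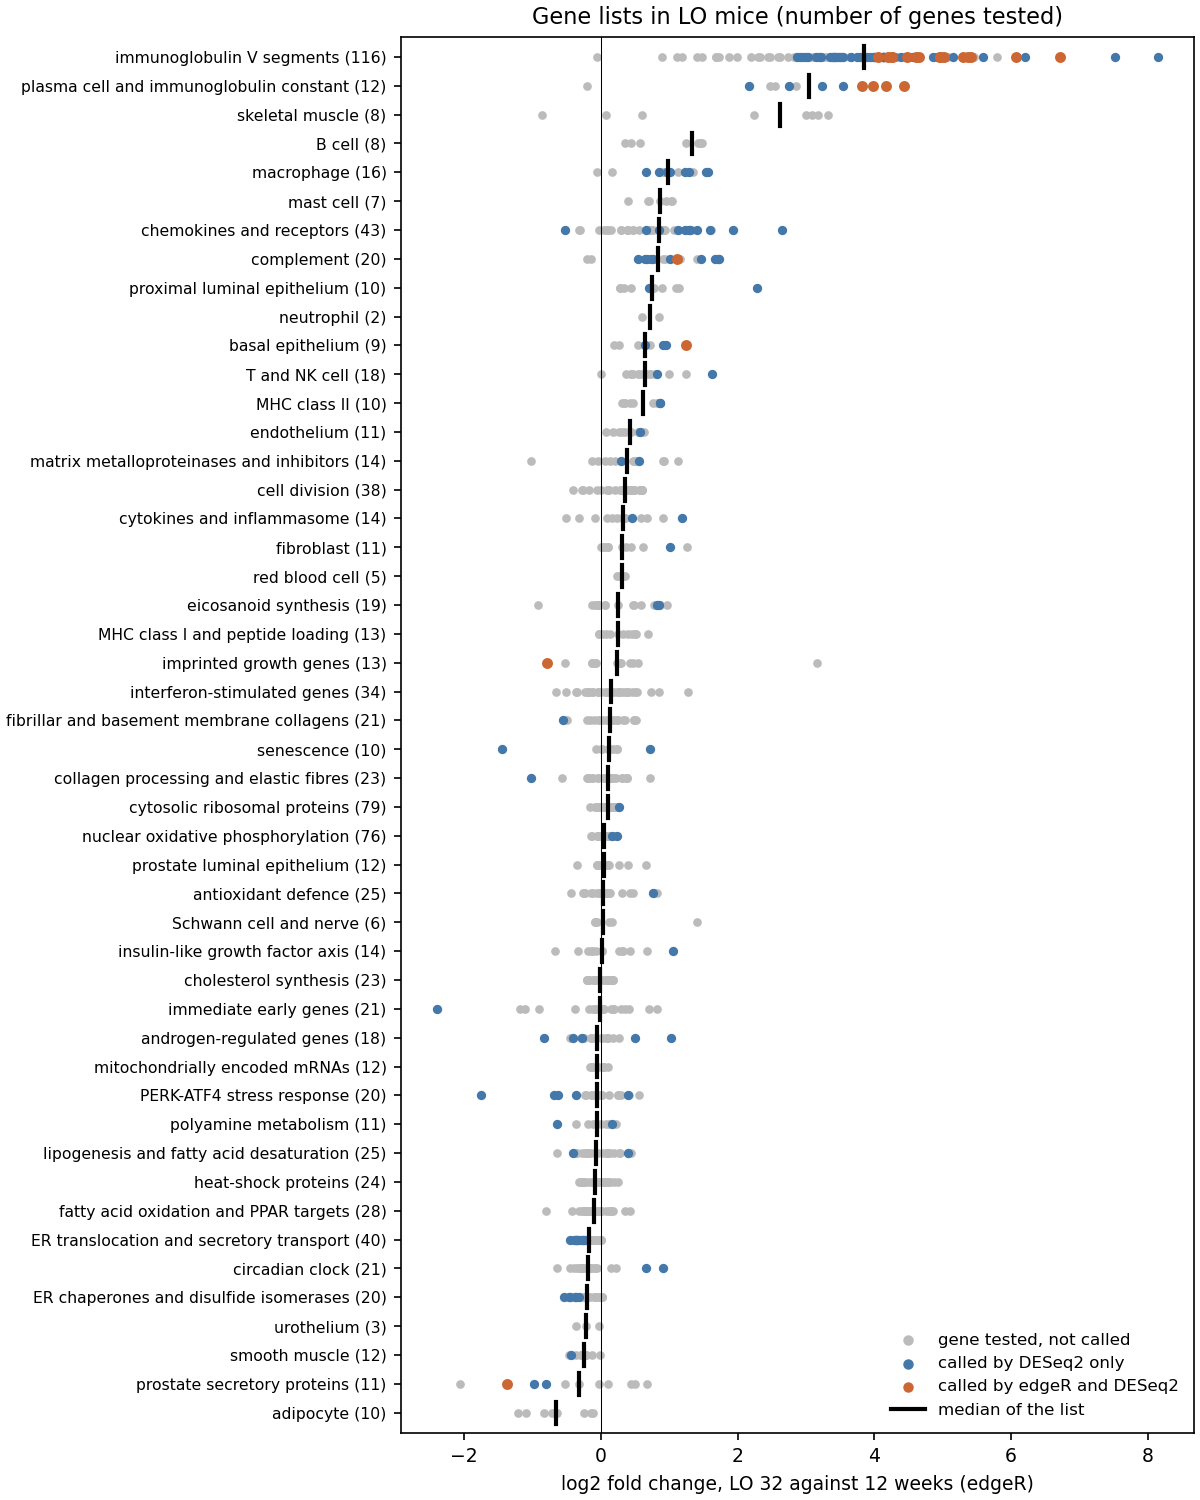
Log2 fold change of LO mice at 32 against 12 weeks (x axis) for every gene tested in each list (y axis, number tested in brackets). Grey points were not called, blue points were called by DESeq2 only and orange points by edgeR and DESeq2, and black bars mark list medians, from 3.85 for V segments to −0.65 for adipocyte genes.

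The change over time in LO was set beside that in SO and PF in 1 fit of all 6 groups, which tested 16605 genes. In this fit 448 genes (2.70%) were called in LO, 1073 (6.46%) in SO and 5 (0.0301%) in PF. The direct test of the difference between the LO and SO changes called 0 genes in edgeR, with 553 (3.33%) at an unadjusted p under 0.05, and 0 in DESeq2. For LO against PF edgeR called 0 genes, with 1294 (7.79%) at an unadjusted p under 0.05 and a smallest adjusted p of 0.343. EdgeR thus called no gene whose change was particular to LO, and the different numbers called in each diet do not show that the diets differ.

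For the 18 immunoglobulin genes called in LO, the median log2 fold change was 4.62 in LO, 3.16 in SO and 1.22 in PF in this fit, and 18 and 15 of them had the same sign in SO and PF. Since they were chosen for their change in LO, the larger LO value is a description only. Ighm had log2 fold changes of 4.15, 3.31 and 0.57 in LO, SO and PF, and the difference between LO and PF was 3.58 ± 1.10 (SE, edgeR adjusted p = 0.470). The other 26 higher genes had medians of 1.07, 0.64 and 0.27, and the 13 lower genes −0.50, −0.41 and −0.14. Several immune lists had a larger median in SO than in LO. In LO, SO and PF it was 1.33, 2.95 and 0.17 for B cell genes and 0.65, 2.08 and 0.13 for T and NK cell genes. It was 0.60, 1.33 and −0.04 for MHC class II and 0.14, 1.24 and −0.45 for interferon-stimulated genes. Plasma cell (3.03, 2.68 and 0.92) and complement genes (0.82, 0.76 and 0.13) had it largest in LO. List medians were not tested between diets. Plagl1 was lower in each diet, at −0.79, −1.14 and −0.61. Cemip stood at 0.88 in LO, 0.04 in SO and −0.03 in PF, and Herpud1 at −0.78, −0.40 and −0.05. Both were chosen for their change in LO, and neither was called in a direct test of LO against SO or PF.

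DESeq2 called 7 genes (0.0422%) in the comparison of LO with PF, all with a lower change in LO. They were Dnajb9 and Hspa13, both ER chaperones or cochaperones, Bet1, a SNARE between ER and Golgi, Mgat2, a Golgi enzyme of N-glycan synthesis, Slc33a1, the acetyl-CoA transporter of the ER, and Bag4 and Gpr155, names given after their values were seen. Dnajb9 had a log2 fold change of −0.46 in LO and 0.40 in PF, a difference of −0.87 (DESeq2 adjusted p = 0.0263, edgeR adjusted p = 0.343). All 7 had an edgeR adjusted p of 0.343.

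**Figure D5:**
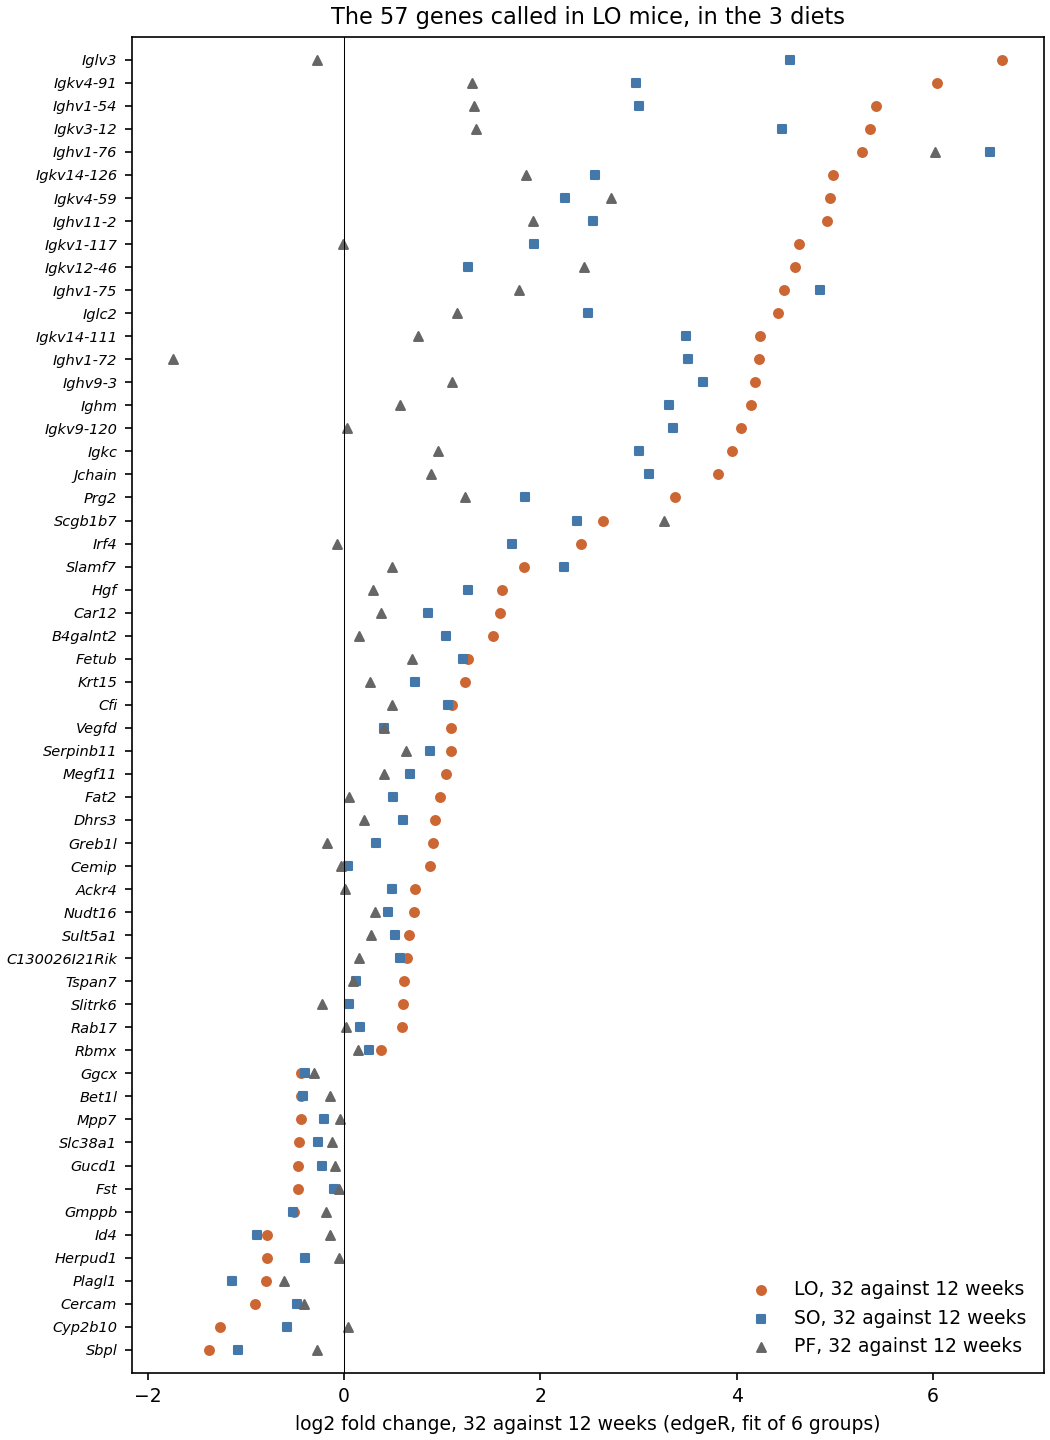
Log2 fold change of 32 against 12 weeks (x axis) in LO, SO and PF mice, n = 5 per group, for the 57 genes called in LO (y axis), from the fit of 6 groups. The genes were chosen in LO. Medians of the immunoglobulin genes are 4.62 in LO, 3.16 in SO and 1.22 in PF, and edgeR called no gene in either direct test of LO against another diet.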

How the data were processed

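Total RNA of the ventral prostate, of RNA integrity number above 8 per the labels, was made into stranded mRNA libraries. The submitters' processing notes name TopHat2, HTSeq, DESeq2 and the genome GRCm38.p6, and the annotation release and strand setting are not given in the sources used here. The authors deposited raw counts of reads per gene for each mouse, without normalization. HTSeq sets aside reads that align to several places, so genes with near copies are undercounted. In LO mice this class held 16.1% to 20.3% of the sum of gene, no-feature, ambiguous and multiple-alignment counts. Of 39179 gene identifiers, 37693 were matched to GENCODE M21. Lines that name no gene were left out.

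From these counts, genes were filtered with filterByExpr, scaled by TMM and fitted in R 4.3.3 with edgeR 4.0.16, whose quasi-likelihood F test was adjusted by Benjamini-Hochberg over all genes tested (threshold 0.05). The SE was derived from the F statistic. Differences between the changes in 2 diets were contrasts of a fit with all 6 groups. Groups were taken from the labels, and 5 mice against 5 cannot give an exact p under 0.00794. The labels do not say that the mice came from separate litters or cages, and p-values measure the spread between these mice. No 2 LO mice of a time had counts within sampling noise of each other (lowest chi-square per degree of freedom 24.6 in 20 pairs). Depth gave at least 27590631 counts per mouse, which leaves genes under about 1 CPM imprecise, and all precision given covers counting and mouse-to-mouse spread only. The script was tested on simulated data.

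The comparison and the gene lists were chosen with earlier results of these data known. Named genes were the 12 with the smallest p per direction among those called, with a mean of at least 1 CPM and without Gm, Rik and pseudogene symbols, up to 4 genes of each list (2 where none was called), the 10 most abundant genes, the defining markers, and some genes picked after their values were seen, among them the remaining called genes, Cd163, Mzb1, Pou2af1, Pbsn, Msmb, Creld2, Ddit3, Dnajb9, Epx and further DESeq2 calls of the lists. Alternatives were DESeq2 1.42.0, other size factors, filters, a robust fit, all 6 groups, a threshold of 0.1, the replicate number as a block and each mouse left out. The DESeq2 fit with the block and the V segment list were chosen only after seeing the data. The mouse numbers were not taken as pairs, since same-numbered mice of the 2 times correlated at 0.488, 0.276, 0.0324, −0.330 and 0.0979. Mice with different numbers correlated at −0.443 to 0.278, so the 2 mice numbered 1 had the highest value. Some marker genes are not reported here.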

Additional observations from a re-analysis of the deposited data

Results flagged for a closer look

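A value lay far from the other 4 of its group, by Dixon's criterion at 95%, in 11 of 266 groups of 5 mice, where chance gives about 1 in 20, or 13.3. Mouse 4 at 32 weeks was lowest in 4 of them, with Ighm at 554.5 CPM, Jchain at 75.64 CPM, Ighv9-3 at 5.026 CPM and Trp63 at 16.43 CPM. Mouse 1 at 32 weeks was highest for Id4 at 15.79 CPM and for H19 at 13.79 CPM, and mouse 3 at 32 weeks for P4ha2 at 35.94 CPM. At 12 weeks mouse 4 was highest for Oas2 at 41.35 CPM and Mylpf at 4.83 CPM, mouse 5 was highest for Ppp1r15a at 46.06 CPM, and mouse 2 was lowest for Mfap4 at 18.65 CPM.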

How the results depend on the processing

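The number of genes called depended strongly on the test. Against 57 (44 higher, 13 lower), DESeq2 called 989 (600 and 389), a robust fit 19 (14 and 5), the fit of all 6 groups 448 (289 and 159) and a threshold of 0.1 gave 440 (254 and 186). With each mouse left out in turn, the count ran from 0 to 586, the higher genes from 0 to 462 and the lower from 0 to 124, the highest values being without 32-week mouse 4. RLE size factors gave 54, a minimum of 10 counts 43 and no filter 72. The replicate block left 8 genes, all higher and 0 lower, 4 of them among the 57, while the DESeq2 block, added after the data were seen, gave 1308 (687 and 621). Labels do not say that numbers pair the mice. All 57 genes kept their direction in each of these fits that tested them. For the difference between LO and PF, DESeq2 called 7 genes, all 7 lower, against 0. The first principal component held 40.3% over all filtered genes, against 50.4%. The second held 22.3% there, with mouse 1 at 25.4 at 12 weeks and at 28.8 at 32 weeks. No other mouse scored above 2.70 on it, and what the mice numbered 1 shared was not tested. Direction was followed through these fits for a chosen set of genes and not for every gene tested. In that set it reversed when 1 mouse was left out for 4 genes that were not called. Their log2 fold change ran from −1.40 (without 32-week mouse 1) to 1.53 for Ltf and from −0.0171 to 0.0795 for mt-Co3. It ran from −0.119 to 0.00573 for mt-Cytb and from −0.113 to 0.0519 for 9530002B09Rik (0.0269 without 12-week mouse 2 and 0.00996 without 32-week mouse 3). The cause of these shifts was not tested.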
